A study of Arabidopsis with 22 samples.

Results

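The transcripts of 40 nuclear Arabidopsis genes for the photosystems, their antenna proteins and the Rubisco small subunit were followed in RNA-seq of whole 25-day-old plants. The genes were taken from a list of loci that was drawn up with earlier results of these data known, and all 40 were found among the 25218 transcripts of the deposited table. They comprise 12 genes for photosystem I (PSI) subunits, 9 for photosystem II (PSII) subunits, 6 for the PSI antenna (LHCI), 6 for the minor antenna of PSII, 3 for photoprotection and 4 for the Rubisco small subunit. The plants were *acd6-1lux-1*, *acd6-1*, *lux-1* and wild-type Col-0, all in the Col-0 background and grown under light and dark periods of equal length. The *acd6-1* allele is a gain of function that keeps defense on and the plants small, the *lux-1* allele is an early nonsense mutation of the clock gene *LUX*, and *acd6-1lux-1* came from a cross of the single mutants. Each mutant gene was thus represented by 1 allele, and samples whose genotype label reads acd6-1-0 were treated as *acd6-1*. Plants were collected at ZT13 and ZT1, 13 and 1 h after light onset, so that ZT13 fell in the dark. Each genotype and time had 3 biological replicates, except *acd6-1lux-1* and *acd6-1* at ZT13 with 2 each, which makes 22 libraries in 8 groups. The study sequenced these plants to look for genes on which *LUX* acts, with and without active defense.

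PSII takes electrons from water and PSI passes them on to ferredoxin, and both receive most of their light energy from chlorophyll-binding antenna proteins. The core reaction center proteins are encoded in the chloroplast, whereas the peripheral subunits and the whole LHC antenna are encoded in the nucleus. Many of these nuclear genes are under light and clock control, and the chlorophyll a/b-binding proteins are classical outputs of the plant clock. Minor antenna proteins connect the PSII core with the LHCII trimers, which are encoded by other genes. The Rubisco small subunit, encoded by the *RBCS* family, belongs to carbon fixation rather than to the membrane and is set beside the photosystem genes here.

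Levels are RPKM, the reads of a transcript divided by its length and by the mapped reads of its library, so every value is a share of its library and not an amount per plant. In whole plants, fewer green cells and less RNA per cell cannot be told apart. Mapped reads ranged from 10306552 to 16224975 per library. The fewest reads behind a value, recovered from RPKM and the mapped reads, were 9 for *ELIP2*, 22 for *ELIP1* and 124 for *LHCB7*. The 40 genes all passed the filter on low values, a mean above 0.3 RPKM in at least 1 group, and 21666 genes were tested. Differences between groups are log2 changes of RPKM + 1 from limma, and a gene was taken as changed at a Benjamini-Hochberg adjusted p under 0.1 over all genes tested. This threshold applies wherever a gene is said to be higher or lower below. *CCA1*, a morning gene of the clock, lay at or below 2.52 RPKM in all ZT13 libraries and at or above 119 RPKM in all ZT1 libraries. *PR1*, a salicylic acid marker, ranged over 1156 to 3602 RPKM in *acd6-1lux-1* and 5209.9 to 6044 RPKM in *acd6-1* at ZT1, against 15.7 to 45.5 RPKM in Col-0. The *LUX* transcript, listed as *PCL1*, ranged over 65.3 to 70.8 RPKM in *acd6-1lux-1* and 6.10 to 8.17 RPKM in *acd6-1* at ZT13, and over 71.4 to 81.0 RPKM in *lux-1* and 6.10 to 6.84 RPKM in Col-0. At ZT13 it was thus higher in all libraries that carry *lux-1* than in those that do not. One *acd6-1lux-1* library of ZT1 (replicate 3) had 60.5% of its reads mapped, against 79.8% to 81.6% in the other 21, and 0.661% of its mapped reads fell on chloroplast genes. Replicate 1 of *lux-1* at ZT1 had the lowest value of its group for 37 of the 40 genes, and replicate 1 of *acd6-1lux-1* at ZT1 for 34 of them.

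Levels of these genes in RPKM, which are comparable between genes because they are per length, spanned a wide range. In Col-0 at ZT1 the highest was *RBCS1A* at 24650.3 ± 1642 RPKM (SD, n = 3), followed by *RBCS3B* at 11616 ± 540.0 RPKM, *LHCA4* at 7479.9 ± 424 RPKM and *LHCB5* at 7036 ± 242 RPKM. At the low end stood *LHCB4.3* at 93.6 ± 0.672 RPKM and *LHCB7*, the rare antenna gene, at 34.5 ± 2.14 RPKM. Below *LHCB5* the order was shallow, and 23 of the 39 pairs of neighbors in the ranking overlapped in the range of their libraries. The table includes near-identical family members such as *RBCS1B*, *RBCS2B* and *RBCS3B*, and how reads shared between them were counted is not given in the sources used here. Their levels, and those of the other paralog pairs described below, are uncertain to that extent. The library kit does not mark strand, so reads of genes that overlap on opposite strands cannot be told apart.

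Together the 40 genes took up a large and variable part of each library. At ZT13 their share of mapped reads was 3.79% and 3.16% in *acd6-1lux-1*, 2.33% and 2.66% in *acd6-1*, 6.18%, 5.45% and 5.65% in *lux-1* and 4.97%, 5.32% and 4.90% in Col-0. At ZT1 it was 4.86%, 5.73% and 5.61% in *acd6-1lux-1*, 4.52%, 4.63% and 4.15% in *acd6-1*, 7.58%, 10.04% and 9.51% in *lux-1* and 9.81%, 10.12% and 9.78% in Col-0. Within each genotype no ZT13 library reached the lowest ZT1 library, and at each time no *acd6-1* library reached the lowest Col-0 library. Of the 6 functional groups, the LHCI genes had the largest difference of their share between times in Col-0. It was 0.352%, 0.372% and 0.373% in Col-0 at ZT13 and 1.78%, 1.75% and 1.68% at ZT1. The share of the *RBCS* genes was 2.21%, 2.46% and 2.17% in Col-0 at ZT13 and 2.49%, 2.75% and 2.69% at ZT1, and the highest ZT13 library lay just under the lowest ZT1 library.

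**Figure D1:**
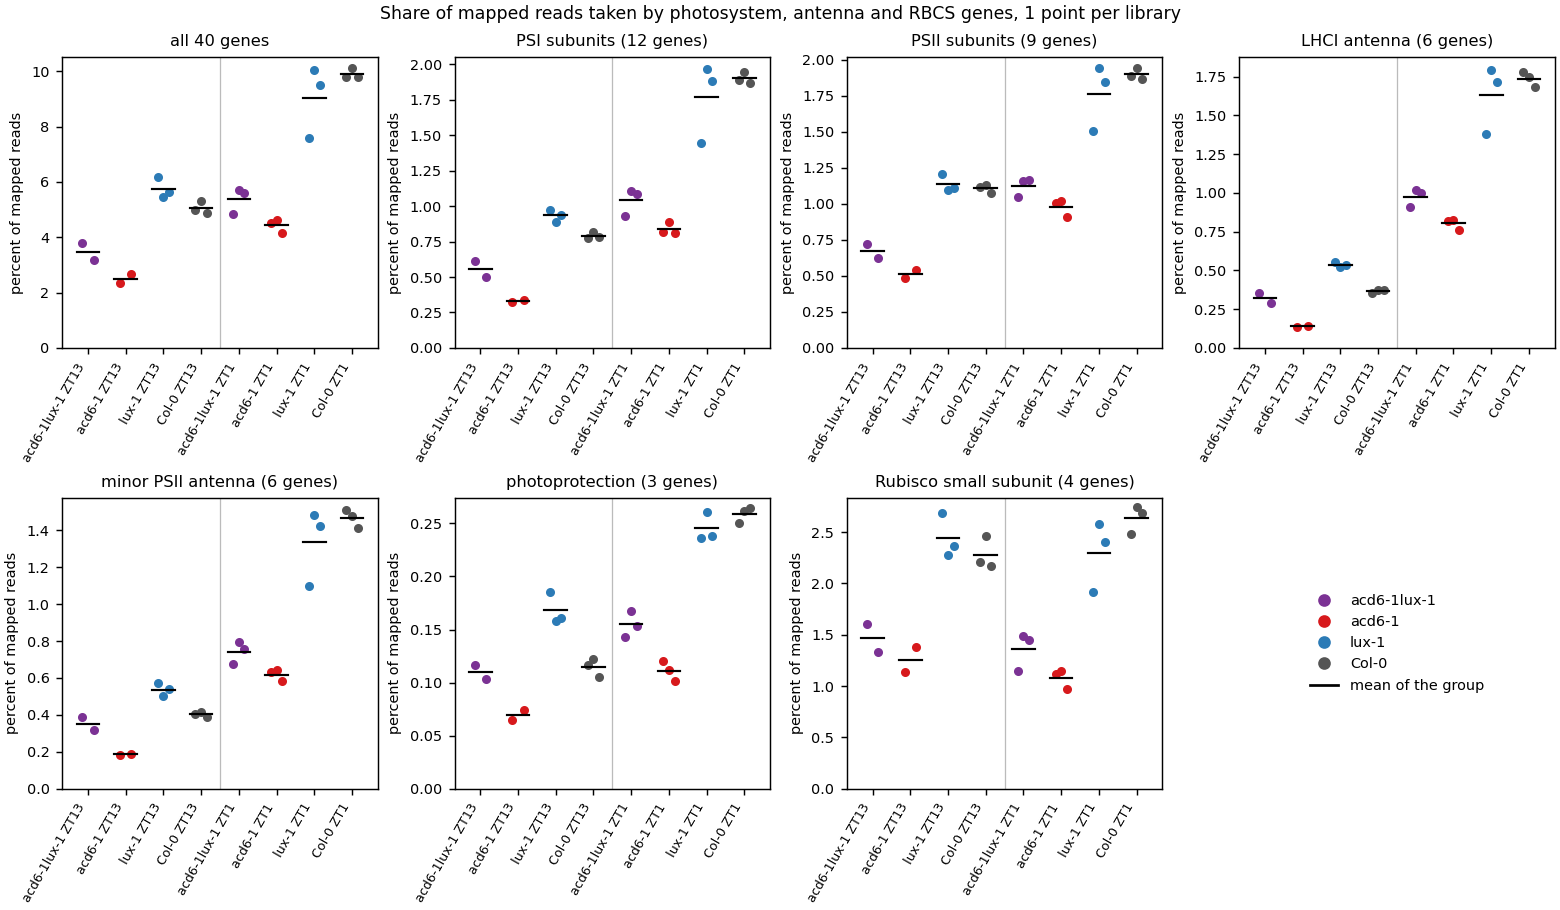
Percent of mapped reads (y axis, from 0) taken by all 40 genes and by each of their 6 functional groups in the 8 groups of libraries (x axis), with 1 point per library and a line at the mean. At each time *acd6-1lux-1* and *acd6-1* lie below *lux-1* and Col-0 for all 40 genes together, and ZT13 lies below ZT1 in each panel except that of the Rubisco small subunit, where only Col-0 has all ZT13 libraries below its ZT1 libraries.

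The first comparison asked how these genes differ between evening and morning in the wild type. In Col-0, 33 of the 40 genes were lower at ZT13 than at ZT1, 2 were higher and 5 did not pass, while 14.4% of all genes tested were lower and 45.6% higher. The median log2 change was -1.05 over the 40 genes and 0.24 over all genes tested, and 23 of the 33 falls went beyond 1, as did those of 3.73% of all genes. All 12 PSI subunit genes, all 9 PSII subunit genes, 4 of 6 LHCI genes, 5 of 6 minor antenna genes and all 3 photoprotection genes were lower, and none of the 4 *RBCS* genes passed in either direction. Relative to the median of all genes, the median of the 40 was -1.29. Scaling by the median of ratios, which places the median of all genes at 0.02, gave 37 genes lower and 0 higher, edgeR and DESeq2 on recovered reads each gave 38 lower and 0 higher, and quantile normalization gave 25 lower and 4 higher.

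Among the LHCI genes, *LHCA4* (AT3G47470), which forms a dimer with *LHCA1*, had 562, 569 and 607 RPKM in the Col-0 libraries at ZT13, against 7895, 7498 and 7047 RPKM at ZT1. Its mean was 12.9 times lower in the evening, a log2 change of -3.69 (standard error 0.11, adjusted p = 1.4e-14). *LHCA1* (AT3G54890) had 737, 779 and 791 RPKM at ZT13 and 6428, 6191 and 5838 RPKM at ZT1, a log2 change of -3.0 (standard error 0.11, adjusted p = 4.6e-13). The evening values of both genes lay far outside the range of the morning values. *LHCA3* changed by -2.23 and *LHCA2* by -1.05 on the log2 scale. The LHCI proteins that join PSI to the NDH complex behaved differently. *LHCA5* (AT1G45474) was slightly higher at ZT13 with 237, 254 and 229 RPKM, against 205, 199.96 and 209 RPKM at ZT1, a log2 change of 0.23 (standard error 0.07, adjusted p = 0.010) that turned to -0.06 with median-of-ratios scaling, -0.10 with edgeR and -0.06 with DESeq2. *LHCA6* did not pass in limma, with a log2 change of -0.21, and was called lower by edgeR and DESeq2.

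The minor antenna held both steep falls and a rise. *LHCB4.2* (AT3G08940), a CP29 gene, had 198, 206 and 229 RPKM at ZT13, against 2274, 2160.2 and 2011 RPKM at ZT1, a log2 change of -3.34 (standard error 0.13, adjusted p = 5.6e-13). *LHCB6* (AT1G15820), the CP24 gene, had 649.9, 702 and 633 RPKM at ZT13 and 4898, 4829.6 and 4580.5 RPKM at ZT1, a log2 change of -2.85 (standard error 0.12, adjusted p = 1.5e-12), and *LHCB5*, the CP26 gene, changed by -2.19. *LHCB4.3* (AT2G40100), the divergent CP29 isoform that is expressed at a low level, was higher in the evening with 145, 148 and 114 RPKM, against 93.3, 94.3 and 93.0 RPKM in the morning. Its log2 change was 0.52 (standard error 0.14, adjusted p = 0.0032), and it did not pass with median-of-ratios scaling, quantile normalization, edgeR or DESeq2.

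The largest changes belonged to the early light-induced proteins, chlorophyll-binding proteins that accumulate under light stress. *ELIP1* (AT3G22840) had 4.83, 6.92 and 3.03 RPKM in Col-0 at ZT13, against 288, 287 and 322 RPKM at ZT1, and *ELIP2* (AT4G14690) had 1.33, 2.17 and 1.25 RPKM at ZT13, against 173, 172 and 205 RPKM at ZT1. Mean RPKM was 60.7 times lower for *ELIP1* and 116 times lower for *ELIP2* in the evening, with log2 changes of -5.71 (standard error 0.33, adjusted p = 1.2e-10) and -6.17 (standard error 0.26, adjusted p = 2.4e-12). *PSBS* (AT1G44575), which enables the rapid thermal dissipation of excess light, changed by -1.02, far less than the *ELIP* genes.

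PSI and PSII subunit genes fell less than the leading antenna genes. In PSI the falls ran from -0.31 for *PSAE2* to -2.71 for *PSAD2*, both on the stromal side where ferredoxin docks. *PSAN* (-1.91), on the lumenal side, and *PSAH2* (-1.86), near the site where LHCII docks, came next. *PSAF*, a plastocyanin docking subunit, and *PSAG* and *PSAK*, next to LHCI, changed by -1.47, -0.89 and -1.20. *PSAL*, *PSAO*, *PSAH1*, *PSAD1* and *PSAE1* changed by -0.84, -1.55, -0.63, -1.24 and -1.23. In PSII the oxygen-evolving complex genes *PSBO1*, *PSBO2*, *PSBP1*, *PSBQ1* and *PSBQ2* changed by -0.75, -0.54, -1.05, -0.34 and -1.11. The genes of the small or peripheral subunits *PSBR*, *PSBW*, *PSBX* and *PSBY* changed by -0.58, -1.03, -0.65 and -1.12. No PSII gene fell as far as *PSAD2*, and with quantile normalization the changes of *PSAL*, *PSBO1*, *PSBQ1*, *PSBR* and *PSBX* turned positive. *LHCB4.1* in the minor antenna changed by -0.82 and also turned with quantile normalization, and *LHCB7* changed by -1.19.

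In limma no difference of the *RBCS* genes passed, whereas edgeR and DESeq2 on recovered reads called each of them lower at ZT13. *RBCS1A* had 20263, 22459 and 20432 RPKM in Col-0 at ZT13, against 22765, 25765 and 25421 RPKM at ZT1, and all 3 evening values lay below the morning ones. The log2 change was -0.23 with a 95% interval of -0.63 to 0.18. The intervals for *RBCS1B*, *RBCS2B* and *RBCS3B* were -0.46 to 0.16, -0.39 to 0.24 and -0.63 to 0.05.

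**Figure D2:**
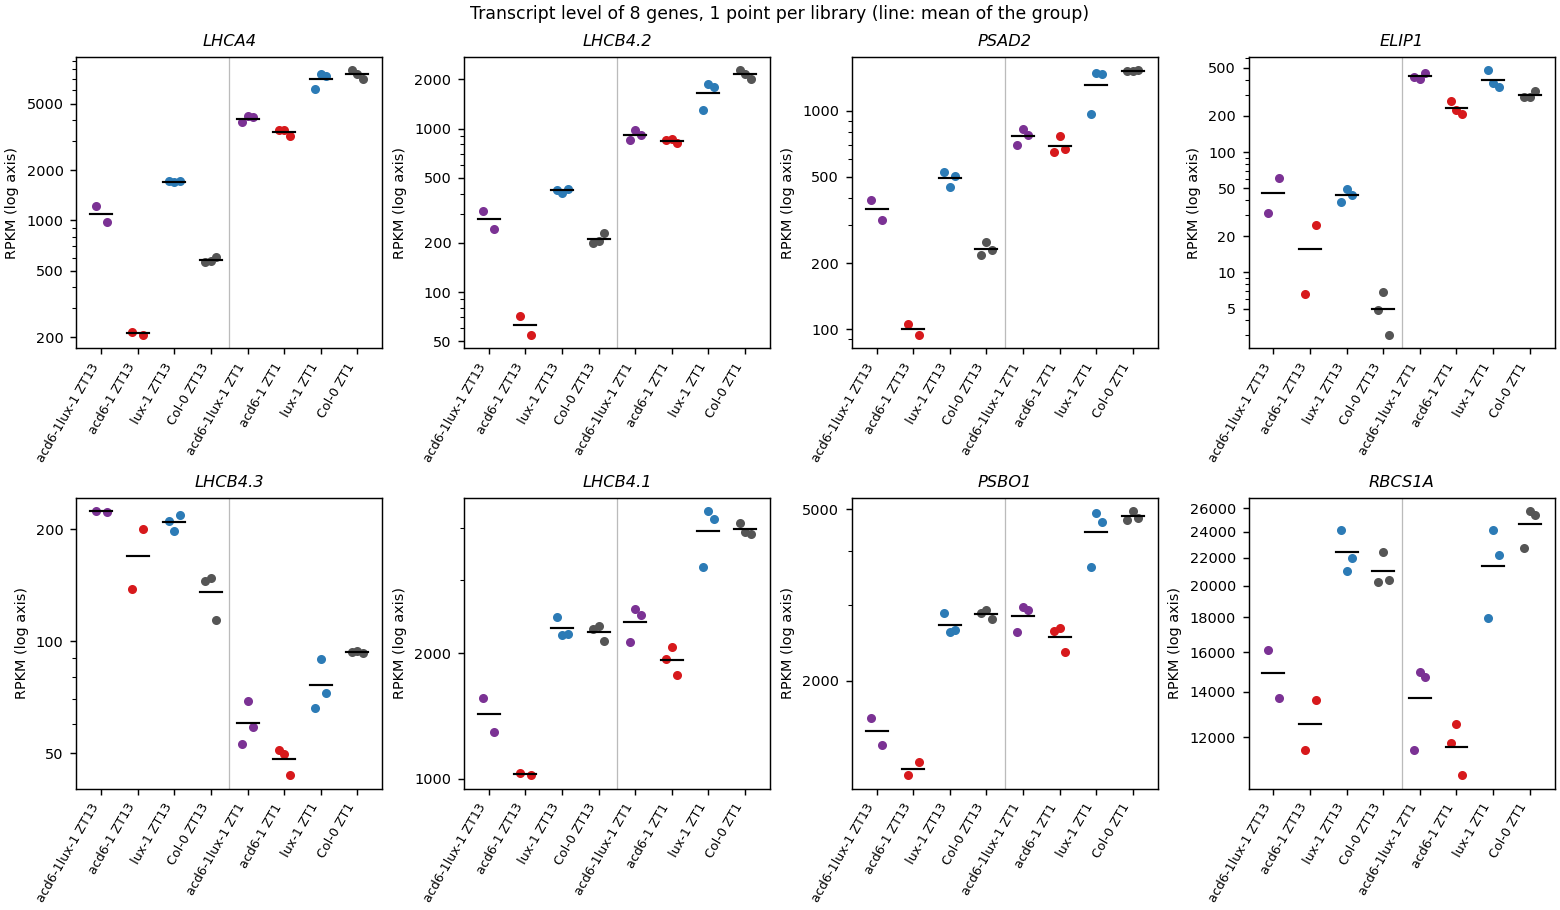
RPKM of 8 genes on log axes (y) in the 8 groups (x), with 1 point per library and a line at the mean. *LHCA4*, *LHCB4.2*, *PSAD2* and *ELIP1* have higher means at ZT13 in the groups that carry *lux-1* than in those that do not, and lie lower at ZT13 than at ZT1, *LHCB4.3* lies higher at ZT13 than at ZT1, and *RBCS1A* differs mainly between plants with and without *acd6-1*.

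The same comparison was made in the mutants. In *acd6-1lux-1*, 32 of the 40 genes were lower at ZT13 and 1 was higher, while 19.9% of all genes tested were lower and 27.2% higher. In *acd6-1*, 32 were lower and 2 higher, while 15.8% of all genes were lower and 31.2% higher, and in *lux-1*, 32 were lower and 2 higher, while 16.4% of all genes were lower and 37.7% higher. With quantile normalization the *lux-1* split was 22 lower and 5 higher. The median log2 change of the 40 genes was -0.76 in *acd6-1lux-1*, -1.10 in *acd6-1* and -0.71 in *lux-1*, and that of all genes was 0.06, 0.12 and 0.15. Changes beyond 1 were reached by 13 of the 32 genes that fell in *acd6-1lux-1*, by 25 in *acd6-1* and by 15 in *lux-1*, while 5.17%, 4.53% and 3.85% of all genes fell that far in these genotypes. The falls were shared, since 31 of the 40 genes were lower at ZT13 in all 4 genotypes. At most 14.4% of all genes tested can be, the share that was lower in Col-0. The 9 others of the 40 were *PSBQ1*, *LHCA5*, *LHCA6*, *LHCB4.3*, *PSBS* and the 4 *RBCS* genes.

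*LHCA4* again had one of the clearest falls. In *acd6-1* it had 216 and 208 RPKM at ZT13, against 3469, 3455 and 3191 RPKM at ZT1, a log2 change of -3.98 (standard error 0.12, adjusted p = 3.5e-14). In *acd6-1lux-1* it had 1219 and 977 RPKM at ZT13 and 3858, 4194 and 4136 RPKM at ZT1, a log2 change of -1.89 (standard error 0.12, adjusted p = 1.3e-09), and in *lux-1* it had 1716, 1688 and 1712 RPKM at ZT13 and 6066, 7555 and 7258 RPKM at ZT1, a log2 change of -2.02 (standard error 0.11, adjusted p = 5.9e-11). The evening and morning libraries of each genotype were far apart. *LHCA1* changed by -2.35 in *acd6-1lux-1*, -3.45 in *acd6-1* and -2.35 in *lux-1*. *ELIP1* changed by -3.26, -4.05 and -3.15 in the same order, and *ELIP2* by -4.08, -4.22 and -4.58. *LHCB4.2* (-3.74, adjusted p = 1.0e-12) and *LHCA3* (-2.73, adjusted p = 8.6e-12) were also among the smallest adjusted p of *acd6-1*. *PSAN* belonged to that class in *acd6-1lux-1* (-1.79, adjusted p = 2.2e-09) and in *lux-1* (-1.63, adjusted p = 8.4e-10), as did *LHCB7* in *acd6-1lux-1* (-1.63, adjusted p = 4.8e-09).

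*LHCB4.3* again ran against the other antenna genes. It had 224 and 223 RPKM at ZT13 and 53.0, 69.2 and 59.0 RPKM at ZT1 in *acd6-1lux-1*, a log2 change of 1.88 (standard error 0.15, adjusted p = 3.1e-08). In *acd6-1* it had 138 and 200.1 RPKM at ZT13 and 51.2, 49.7 and 43.7 RPKM at ZT1, a log2 change of 1.77 (standard error 0.15, adjusted p = 5.6e-08), and in *lux-1* 209.9, 197 and 219 RPKM at ZT13 and 66.1, 89.7 and 72.8 RPKM at ZT1, a log2 change of 1.45 (standard error 0.14, adjusted p = 1.1e-07). No evening library of a mutant overlapped its morning libraries. The difference between ZT13 and ZT1 exceeded that of Col-0 by 1.25 in *acd6-1* (adjusted p = 0.00028) and by 0.93 in *lux-1* (adjusted p = 0.0060). *LHCA5* was higher at ZT13 in *lux-1* (0.23, adjusted p = 0.011), a call that did not hold under either rescaling or in the tests on reads, and *RBCS2B* was higher in *acd6-1* (0.65, adjusted p = 0.0079), a call that rests on *acd6-1* ZT13 replicate 2.

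Active defense in *acd6-1* went with low levels of nearly all of these genes. At ZT13, 37 of the 40 genes were lower in *acd6-1* than in Col-0 and 2 were higher, while 26.5% of all genes tested were lower and 22.3% higher. At ZT1, 38 were lower and 0 were higher (38 at an unadjusted p under 0.05, and 39 and 38 lower by edgeR and DESeq2), while 31.0% of all genes tested were lower and 37.2% higher. The median log2 change of the 40 genes was -1.15 at ZT13 and -1.13 at ZT1, and 36 genes were lower at both times. At most 26.5% of all genes tested can be lower at both times, the share that was lower at ZT13. The medians of the functional groups were alike in sign, at -1.24 and -1.17 for PSI, -1.11 and -0.97 for PSII, -1.48 and -1.14 for LHCI, -1.10 and -1.14 for the minor antenna and -0.95 and -1.53 for *RBCS* at ZT13 and ZT1. These comparisons share their *acd6-1* and Col-0 libraries with the evening comparisons above, so they are not independent of them. The photoprotection genes are described below.

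At ZT13 the smallest adjusted p was that of *PSAE2* (AT2G20260), with 252 and 263 RPKM in *acd6-1*, against 669, 633 and 657 RPKM in Col-0, a log2 change of -1.34 (standard error 0.09, adjusted p = 8.7e-09). *LHCB4.2* had the largest fall, with 71.1 and 54.8 RPKM in *acd6-1*, against 198, 206 and 229 RPKM in Col-0, a log2 change of -1.74 (standard error 0.14, adjusted p = 7.0e-08). The LHCI genes *LHCA6*, *LHCA1*, *LHCA3* and *LHCA5* changed by -1.63, -1.59, -1.51 and -0.98, so that *LHCA5* and *LHCA6*, which differed little between times in Col-0, were lower in *acd6-1* like the main LHCI genes. At ZT1 the smallest adjusted p belonged to *PSAH2*, with 926, 907 and 914 RPKM in *acd6-1*, against 2449, 2405 and 2228 RPKM in Col-0, a log2 change of -1.36 (standard error 0.10, adjusted p = 6.0e-09). *PSBQ1*, an extrinsic subunit of the oxygen-evolving complex, changed by -1.42, *LHCA6* by -1.57 and *LHCB6* by -1.48. None of these *acd6-1* values overlapped Col-0.

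*RBCS* transcripts, which did not pass between times in Col-0 by limma, were lower in *acd6-1* at both times. *RBCS2B* (AT5G38420) had 1995, 1817 and 1588 RPKM in *acd6-1* at ZT1, against 5697, 6002 and 5969.7 RPKM in Col-0, the largest change of the comparison at -1.72 (standard error 0.16, adjusted p = 7.1e-08). *RBCS1B* changed by -1.64 at ZT1, and the *RBCS* changes at ZT13 ran from -1.12 for *RBCS1B* to -0.75 for *RBCS1A*. The call for *RBCS1A* at ZT13 did not hold with no filter, with quantile normalization or with only the groups compared. It also did not hold without *acd6-1* ZT13 replicate 1.

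*ELIP1* and *ELIP2* went against the rest at ZT13. *ELIP1* had 6.64 and 24.8 RPKM in *acd6-1*, against 4.83, 6.92 and 3.03 RPKM in Col-0, a log2 change of 1.30 (standard error 0.36, adjusted p = 0.0078). *ELIP2* had 2.84 and 5.28 RPKM in *acd6-1*, against 1.33, 2.17 and 1.25 RPKM in Col-0, a log2 change of 0.94 (standard error 0.29, adjusted p = 0.015). Neither call held without *acd6-1* ZT13 replicate 2, and the *ELIP1* values of *acd6-1* and Col-0 overlapped. At ZT1 *ELIP2* was lower in *acd6-1* (-1.0, adjusted p = 0.0030), *ELIP1* did not pass (-0.37), and *PSBS* was lower at both times (-0.74 at ZT13 and -1.33 at ZT1). *LHCB4.3* did not pass at ZT13 (0.30) and *LHCB7* did not pass at ZT1 (-0.11). The *acd6-1* effect itself differed between ZT13 and ZT1 for 13 genes, of which 6 were shifted upward and 7 downward, while 8.55% of all genes were shifted upward and 24.3% downward. That split was 9 and 0 with median-of-ratios scaling, 11 and 0 with edgeR, and 3 and 24 with quantile normalization. Without *acd6-1* ZT13 replicate 1 that count was 8.

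Leaf senescence genes moved with *acd6-1* as well. The summed level of 7 senescence markers was 1296 to 1450.0 RPKM in *acd6-1* and 319.6 to 577.1 RPKM in Col-0 at ZT13, and 2462 to 3075 RPKM in *acd6-1* and 252.7 to 387.0 RPKM in Col-0 at ZT1. Of the 7, 3 were higher in *acd6-1* at ZT13 and all 7 at ZT1, while 22.3% and 37.2% of all genes tested were higher. In *acd6-1lux-1* the sum was 1000 to 1009 RPKM at ZT13 and 1217 to 2540 RPKM at ZT1. There 0 and 3 of the 7 were lower than in *acd6-1*, while 0.346% and 10.9% of all genes tested were lower. The markers did not all move with the sum. Their log2 changes in *acd6-1lux-1* against *acd6-1* ran from -0.73 to 2.41 at ZT13 and from -1.34 to 0.93 at ZT1. Root markers were near the floor everywhere, with a sum of at most 3.92 RPKM over 9 genes, 1 to 5 of which were at 0 in each group, although whole plants were collected. The part of senescence in the lower photosystem transcripts was not tested.

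**Figure D3:**
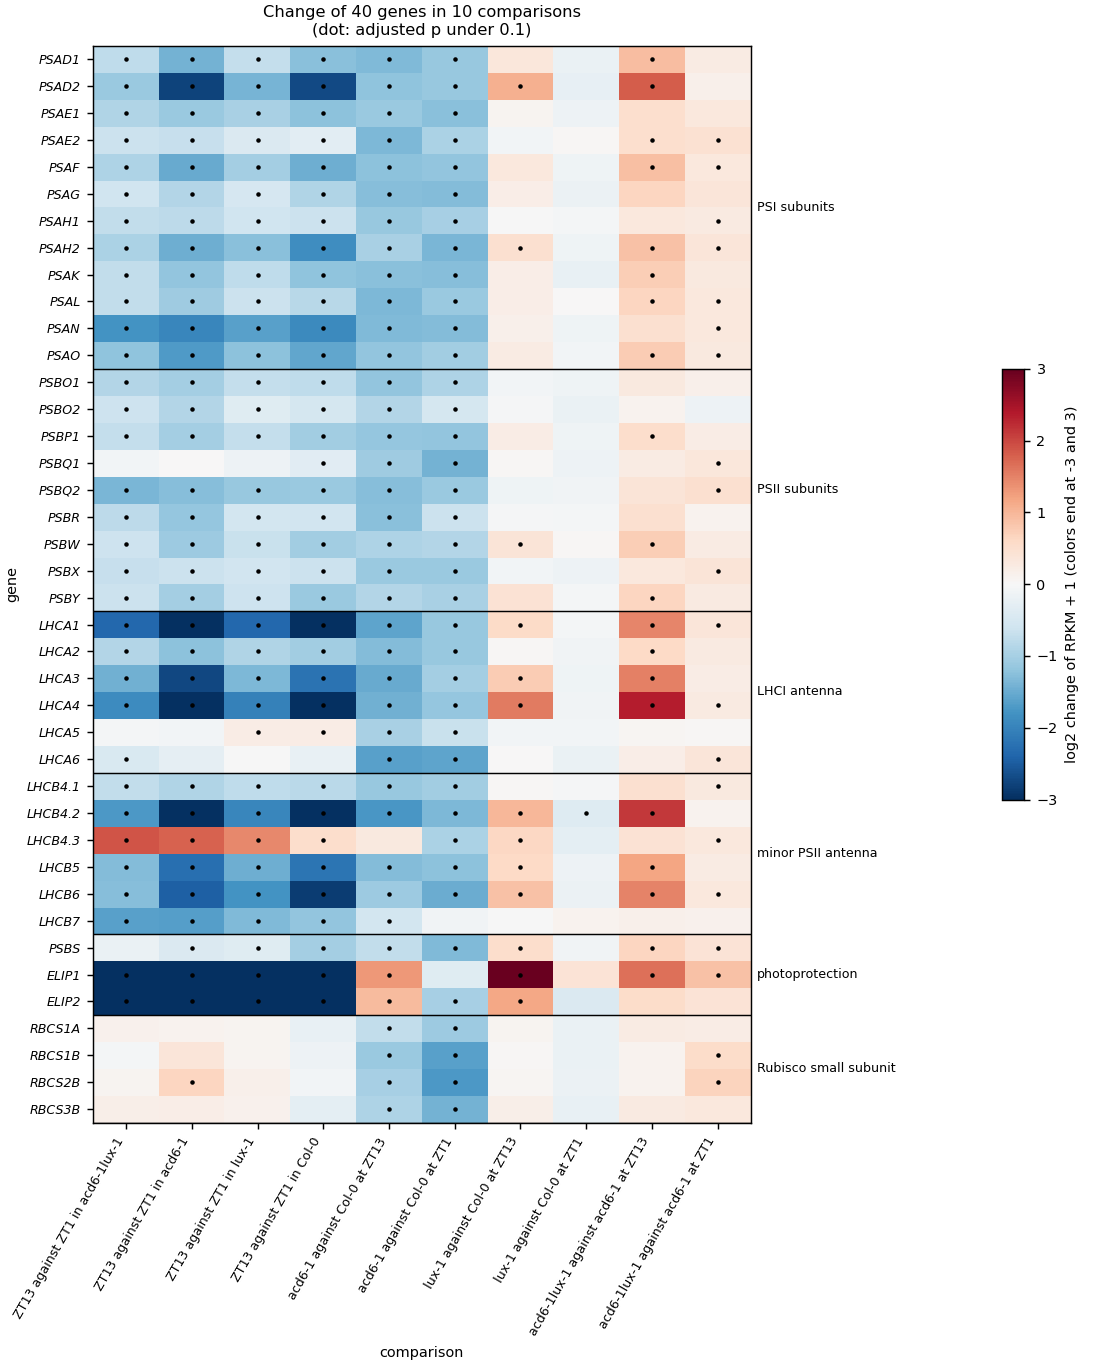
Log2 change of RPKM + 1 for the 40 genes (rows, by functional group) in 10 comparisons (columns), blue for lower and red for higher, with a dot at an adjusted p under 0.1. The columns for ZT13 against ZT1 and for *acd6-1* against Col-0 are blue for most genes, with *LHCB4.3*, *LHCA5*, *LHCA6* and the *RBCS* genes among the exceptions in the time columns, and red in the *lux-1* columns is strongest at ZT13 in *LHCA4*, *LHCB4.2*, *PSAD2* and *ELIP1*.

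The effect of *lux-1* in plants without active defense depended on the time. At ZT13, 13 of the 40 genes were higher and 0 lower in *lux-1* plants against Col-0, while 2.08% of all genes tested were higher and 1.85% lower. At an unadjusted p under 0.05 there were 17 genes, all higher, and edgeR and DESeq2 called 13 and 14 higher and 0 lower. At ZT1, 0 genes were higher and 1 was lower, while 13.2% of all genes were higher and 4.61% lower. At ZT1 DESeq2 called 2 genes lower and edgeR 1, and 3 genes, all lower, had an unadjusted p under 0.05. Without *lux-1* ZT1 replicate 2 the limma count was 2. The median log2 change was 0.21 at ZT13 and -0.13 at ZT1. The difference between the effects at ZT13 and ZT1 passed for 12 genes, all upward, while 3.75% of all genes were shifted upward and 9.4% downward.

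*LHCA4* led at ZT13, with 1716, 1688 and 1712 RPKM in *lux-1*, against 562, 569 and 607 RPKM in Col-0. The mean was 2.94 times higher, a log2 change of 1.56 (standard error 0.11, adjusted p = 5.3e-08), and at ZT1 the same gene changed by -0.11 and did not pass. *PSAD2* (AT1G03130) had 525, 449 and 501 RPKM in *lux-1* at ZT13, against 219, 250.2 and 229.6 RPKM in Col-0, a log2 change of 1.07 (standard error 0.14, adjusted p = 0.00012). *LHCB4.2* had 422, 405 and 428 RPKM in *lux-1*, against 198, 206 and 229 RPKM in Col-0, a log2 change of 0.98 (standard error 0.13, adjusted p = 0.00016). In all 3 genes the groups were well apart. *ELIP1* had 38.4, 49.2 and 44.3 RPKM in *lux-1*, against 4.83, 6.92 and 3.03 RPKM in Col-0, a log2 change of 2.97 (standard error 0.33, adjusted p = 2.6e-05), and *ELIP2* changed by 1.16 (standard error 0.26, adjusted p = 0.022), a call that did not hold without Col-0 ZT13 replicate 3 or without *lux-1* ZT13 replicate 3. The other 8 genes were *PSAH2*, *PSBW*, *LHCA1*, *LHCA3*, *LHCB4.3*, *LHCB5*, *LHCB6* and *PSBS*, with log2 changes of 0.39 for *PSBW* to 0.87 for *LHCB6*. The call of *PSBW* did not hold with median-of-ratios scaling, with no filter or when any 1 of the 6 libraries compared was left out, and that of *LHCB4.3* did not hold without Col-0 ZT13 replicate 3. The only gene called at ZT1 was *LHCB4.2*, with 1309, 1869 and 1787 RPKM in *lux-1*, against 2274, 2160.2 and 2011 RPKM in Col-0. Its log2 change of -0.39 (standard error 0.13, adjusted p = 0.054) did not pass without *lux-1* ZT1 replicate 1, Col-0 ZT1 replicate 1 or Col-0 ZT1 replicate 2.

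In plants with active defense, part of the 40 genes were higher with *lux-1* at each time, and the median change was larger at ZT13. The test of the difference between times passed for 9 of the 40, and the median difference of the *RBCS* genes was -0.24. At ZT13, 20 of the 40 genes were higher in *acd6-1lux-1* than in *acd6-1* and 0 were lower, while 1.15% of all genes tested were higher and 0.346% lower. The median log2 change was 0.54, against 0.02 over all genes, and 8 genes went beyond 1, as did 0.457% of all genes. With only these 4 libraries in the fit, 0 genes passed and 24 had an unadjusted p under 0.05, while edgeR and DESeq2 on all libraries called 15 and 20 higher. Without *acd6-1lux-1* ZT13 replicate 1 the count was 9, and without *acd6-1* ZT13 replicate 1 it was 13. At ZT1, 20 genes were higher and 0 lower (26 at an unadjusted p under 0.05, all higher), while 22.8% of all genes tested were higher and 10.9% lower, the median was 0.31 and no change went beyond 1. That count varied with the processing. It was 7 when either *acd6-1* ZT1 replicate 3 or *acd6-1lux-1* ZT1 replicate 2 was left out, 13 when *acd6-1lux-1* ZT1 replicate 3 was, 4 with median-of-ratios scaling (3 higher and 1 lower), 6 with edgeR and 7 with DESeq2 (6 higher and 1 lower).

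The 8 genes beyond 1 at ZT13 were mostly antenna genes. *LHCA4* had 1219 and 977 RPKM in *acd6-1lux-1*, against 216 and 208 RPKM in *acd6-1*, a 5.18-fold higher mean and a log2 change of 2.36 (standard error 0.13, adjusted p = 3.7e-09). *LHCB4.2* had 313 and 243 RPKM in *acd6-1lux-1*, against 71.1 and 54.8 RPKM in *acd6-1*, a log2 change of 2.13 (standard error 0.16, adjusted p = 2.1e-07). *PSAD2* had 392 and 317 RPKM in *acd6-1lux-1*, against 105 and 94.3 RPKM in *acd6-1*, a log2 change of 1.81 (standard error 0.17, adjusted p = 3.4e-06). For each of these genes both *acd6-1lux-1* libraries lay above both *acd6-1* libraries by a wide margin. *LHCA3* (1.51, adjusted p = 2.3e-06), *LHCB6* (1.48), *LHCA1* (1.47) and *LHCB5* (1.18) followed. *ELIP1* had 31.1 and 60.4 RPKM in *acd6-1lux-1*, against 6.64 and 24.8 RPKM in *acd6-1*, a log2 change of 1.66 (standard error 0.40, adjusted p = 0.061), and its replicates were far apart in both groups. That call did not hold with edgeR, without *acd6-1* ZT13 replicate 1 or without *acd6-1lux-1* ZT13 replicate 2. The 12 genes within 1 were 7 PSI genes (*PSAD1*, *PSAE2*, *PSAF*, *PSAH2*, *PSAK*, *PSAL* and *PSAO*), 3 PSII genes (*PSBP1*, *PSBW* and *PSBY*), *LHCA2* and *PSBS*. Among them *PSAK*, *PSAL*, *PSBP1*, *PSBY*, *LHCA2* and *PSBS* did not pass with median-of-ratios scaling or without *acd6-1* ZT13 replicate 1, and only *PSAH2* passed without *acd6-1lux-1* ZT13 replicate 1. None of the 4 *RBCS* genes passed, with log2 changes of 0.11 for *RBCS1B* to 0.27 for *RBCS3B*.

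At ZT1 the leading genes were others. *PSAE2* had 539, 621 and 565 RPKM in *acd6-1lux-1*, against 427, 437 and 393 RPKM in *acd6-1*, a log2 change of 0.46 (standard error 0.08, adjusted p = 0.00043). *PSBQ2* (AT4G05180) had 1487, 1621 and 1564 RPKM in *acd6-1lux-1*, against 1109, 1148 and 1101 RPKM in *acd6-1*, a log2 change of 0.48 (standard error 0.10, adjusted p = 0.0020). The groups did not overlap for either gene. *RBCS2B* changed by 0.68 (standard error 0.16, adjusted p = 0.0058), *RBCS1B* by 0.55, *PSBS* by 0.42 and *ELIP1* by 0.87 (adjusted p = 0.058). The calls of *RBCS1B*, *PSBS* and *ELIP1* did not hold with median-of-ratios scaling. Those of *RBCS1B* and *PSBS* also did not hold with only the groups compared, and that of *ELIP1* in 4 of the 22 fits that left out 1 library. The *lux-1* effect in the *acd6-1* background differed between ZT13 and ZT1 for 9 genes, all upward, while 3.12% of all genes were shifted upward and 3.71% downward.

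The *lux-1* effect was also set against its counterpart in the other background. At ZT13, 11 genes were higher with *lux-1* in both backgrounds: *PSAD2*, *PSAH2*, *PSBW*, *LHCA1*, *LHCA3*, *LHCA4*, *LHCB4.2*, *LHCB5*, *LHCB6*, *PSBS* and *ELIP1*, with the limits on *PSBW*, *PSBS* and *ELIP1* given above. At most 1.15% of all genes tested can be higher in both, the share that was higher in the *acd6-1* background. These 11 genes make up 55.0% of the 20 genes called in the *acd6-1* background and 84.6% of the 13 called in the Col-0 background. The log2 change with *lux-1* was higher in the *acd6-1* background than in Col-0 for 5 genes, *PSAE2*, *LHCA1*, *LHCA3*, *LHCA4* and *LHCB4.2*, while 0.342% of all genes were shifted upward, and 0.245% downward. It passed for 0 genes without *acd6-1lux-1* ZT13 replicate 1, for 1 without Col-0 ZT13 replicate 3 or without *lux-1* ZT13 replicate 2, and for 2 without Col-0 ZT13 replicate 1 or without *acd6-1* ZT13 replicate 1. At ZT1 it was higher in the *acd6-1* background for 15 genes, while 7.65% of all genes were shifted upward and 8.39% downward. A shift upward is not always a larger effect, since the changes in Col-0 lay below 0 for these genes except *PSAE2*, and *LHCB4.2* changed by 0.11 in *acd6-1*, which did not pass, and by -0.39 in Col-0. That count was 3 when either Col-0 ZT1 replicate 2 or *acd6-1lux-1* ZT1 replicate 2 was left out, 4 without *lux-1* ZT1 replicate 1 or without *acd6-1* ZT1 replicate 3, and 9 without *acd6-1* ZT1 replicate 2.

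Genes that fell further toward the evening tended to be those higher with *lux-1*. The evening change in Col-0 and the effect of *lux-1* in *acd6-1* at ZT13 rest on different libraries. Over the 40 genes their log2 changes had a Pearson's r of -0.70 and a Spearman's rho of -0.84. Of the 23 genes that fell beyond 1 in Col-0, 18 were among the 20 genes higher in *acd6-1lux-1*, which is 78.3% of the 23 and 90.0% of the 20. Their median log2 change with *lux-1* was 0.77, against 0.29 in the other 17 genes. *PSAE2* and *PSAL* were higher with *lux-1* without a fall beyond 1, and *ELIP2*, *LHCB7*, *PSAE1*, *PSAN* and *PSBQ2* fell beyond 1 without a call for *lux-1*. The second pair of comparisons without a shared library, the evening change in *acd6-1* and the effect of *lux-1* in Col-0 plants at ZT13, gave r = -0.69 and rho = -0.59 over the 40 genes. There 11 of the 25 genes that fell beyond 1 in *acd6-1* were among the 13 higher with *lux-1*, which is 44.0% and 84.6%. Both coefficients run across genes rather than plants. They and the overlaps are given for the 40 genes only, as a description.

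**Figure D4:**
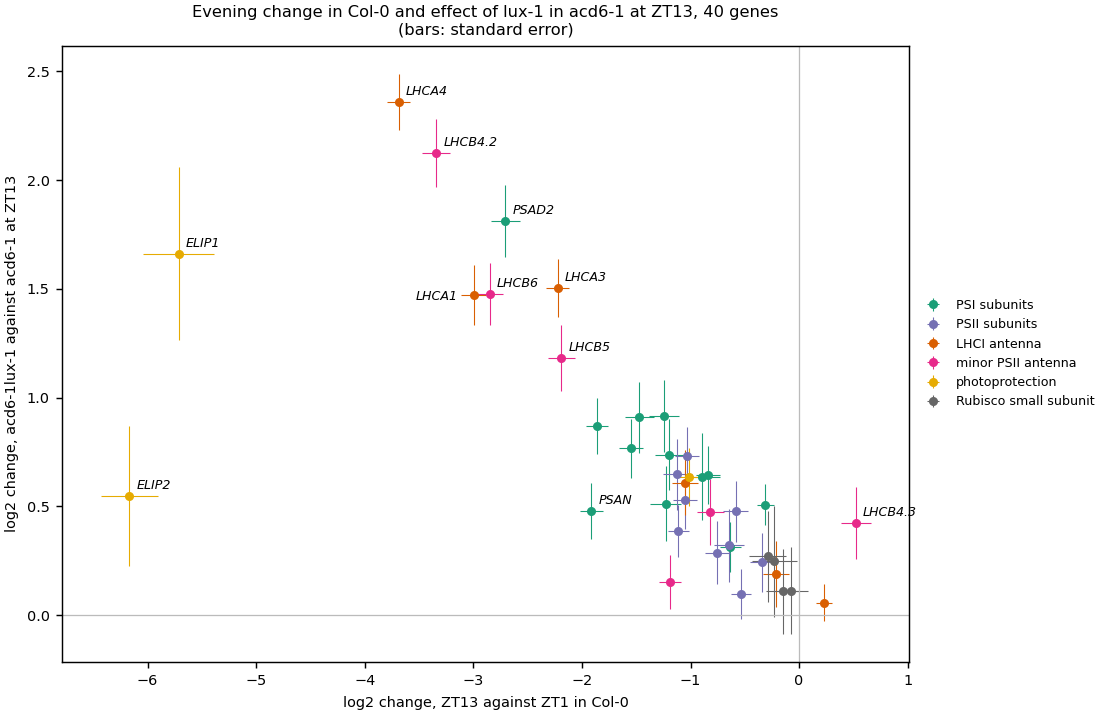
Log2 change of the 40 genes at ZT13 against ZT1 in Col-0 (x axis) and in *acd6-1lux-1* against *acd6-1* at ZT13 (y axis), colored by functional group, with standard errors as bars. The points run from the lower right, where *RBCS* and *LHCA5* lie near 0 on both axes, to *LHCB4.2* and *LHCA4* at the upper left, while *ELIP1* and *ELIP2* fall furthest in the evening without the largest change on the y axis.

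Paralogs of 1 subunit could take different courses, which ratios within a library show directly. *PSAD1* exceeded *PSAD2* 5.48 to 5.83 times in Col-0 at ZT13 and 2.01 to 2.13 times at ZT1. With *lux-1* the evening ratio was lower, at 2.71 to 2.96 in *acd6-1lux-1* against 4.87 to 5.80 in *acd6-1*, and at 3.32 to 3.53 in *lux-1*. In the CP29 genes, the ratio of *LHCB4.1* to *LHCB4.2* at ZT13 was 5.0 to 5.34 in *acd6-1lux-1* and 14.5 to 18.6 in *acd6-1*, and 5.21 to 5.80 in *lux-1* and 9.30 to 11.5 in Col-0. At ZT1 it lay between 1.81 and 2.70 in all 4 genotypes. *LHCB4.1* itself changed by -0.82 between times in Col-0 and did not pass for *lux-1* at ZT13 in either background (0.47 in *acd6-1* and 0.03 in Col-0). *LHCB4.1* exceeded *LHCB4.3* 5.10 to 7.48 times in *acd6-1* at ZT13 and 37.9 to 41.7 times at ZT1, so that these isoforms were less unequal in the evening.

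Other pairs changed order with time. *PSAH1* was above *PSAH2* in Col-0 at ZT13, with a ratio of 1.63 to 1.75, and below it at ZT1, with 0.681 to 0.738. *PSBQ1* was above *PSBQ2* at ZT13 (1.52 to 1.77) and just below it at ZT1 (0.953 to 0.976) in Col-0. *LHCA4* and *LHCA1* lay at 0.281 to 0.297 and 0.382 to 0.390 of the level of *LHCA2* in Col-0 at ZT13, against 1.68 to 1.99 and 1.39 to 1.62 times its level at ZT1. The ratio of *PSBO1* to *PSBO2* kept its order, from 2.12 to 3.54 over all libraries, as did *RBCS1A* to *RBCS3B*, from 2.03 to 2.81. At ZT1 *PSBO1* to *PSBO2* was 2.35 to 2.52 in *acd6-1* and 3.03 to 3.32 in Col-0. *RBCS1A* to *RBCS3B* was 2.55 to 2.81 in *acd6-1* and 2.05 to 2.20 in Col-0. Neither ratio overlapped between *acd6-1* and Col-0 at ZT13, whereas that of *PSBO1* to *PSBO2* overlapped between *acd6-1lux-1* and *lux-1* at both times. *ELIP1* exceeded *ELIP2* in all libraries, 6.97 to 13.8 times in *lux-1* at ZT13 and 2.42 to 3.63 times in Col-0, where *ELIP2* rests on few reads. *PSAE1* exceeded *PSAE2* 1.46 to 1.78 times in Col-0 at ZT13 and 2.81 to 3.26 times at ZT1.

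**Figure D5:**
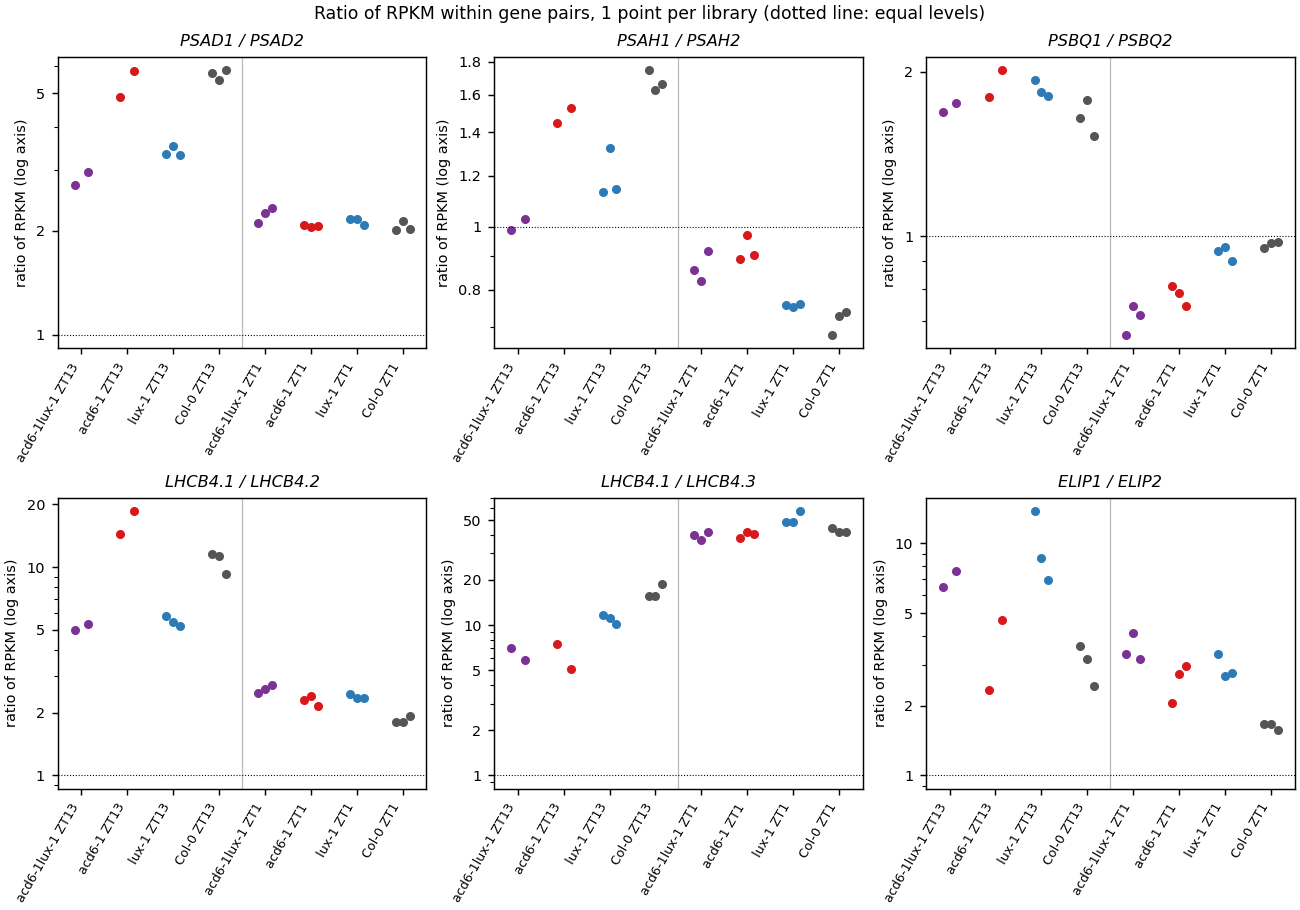
Ratio of RPKM within 6 gene pairs on log axes (y) in the 8 groups (x), with 1 point per library and a dotted line at equal levels. The ratios of *PSAD1* to *PSAD2* and of *LHCB4.1* to *LHCB4.2* are raised at ZT13 and less so with *lux-1*, those of *PSAH1* to *PSAH2* and of *PSBQ1* to *PSBQ2* cross the line between ZT1 and ZT13 in Col-0, and that of *LHCB4.1* to *LHCB4.3* is lower at ZT13.

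Genes of neighboring pathways were counted in the same way. Of all genes tested, 14.4% were lower and 45.6% higher in the evening in Col-0, and 1.15% were higher with *lux-1* in *acd6-1* at ZT13. The LHCII trimer genes, which code for the main antenna of PSII, had larger changes than the median of the 40 genes. All 9 were lower in Col-0 at ZT13 than at ZT1, with a median log2 change of -3.99, and all 9 were higher in *acd6-1lux-1* than in *acd6-1* at ZT13, with a median of 1.68. *LHCB2.2* changed by -7.71 and *LHCB2.1* by -7.83 with time, and *LHCB3* by 2.58 and *LHCB2.2* by 2.94 with *lux-1* in *acd6-1*. Of 14 genes for electron transport and ATP synthase, 7 were lower and 3 higher in the evening in Col-0, and 1 was higher with *lux-1* in *acd6-1* at ZT13. *PGR5*, needed for cyclic electron flow around PSI, was among the lower in the evening (-1.37) and was the 1 gene higher with *lux-1* (0.75). *FNR2*, a ferredoxin-NADP reductase, was higher in the evening (1.42). Of 16 Calvin cycle genes, 6 were lower and 4 higher in the evening in Col-0, among them *FBA1* (-1.86) and *CP12-2* (1.40), and 1, again *FBA1* (0.58, adjusted p = 0.057), was higher with *lux-1* in *acd6-1* at ZT13.

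Chlorophyll synthesis genes were divided as well. Of 19, 9 were lower and 4 higher in the evening in Col-0, led by *GUN5*, a magnesium chelatase subunit (-3.31), and *CH1*, the chlorophyllide a oxygenase that makes chlorophyll b (-4.23). *GUN5* and *CH1* were also among the 3 higher with *lux-1* in *acd6-1* at ZT13 (1.34 and 1.71). Of 17 regulators of photosynthesis genes, 10 were lower and 5 higher in the evening in Col-0, with *STO*, a B-box protein of light signaling, at -4.70 and *PIL6*, a phytochrome-interacting factor, at -3.74. Both were among the 3 higher with *lux-1* in *acd6-1* at ZT13 (3.19 and 2.17). Of 6 other LHC-like genes, 2 were lower and 3 higher in the evening in Col-0, against 14.4% lower and 45.6% higher of all genes tested. The 2 lower were *OHP* and *OHP2*, one-helix proteins (-1.19 and -0.46). *OHP* was the 1 gene of this list higher with *lux-1* in *acd6-1* at ZT13 (0.51). Of 3 genes for thylakoid kinases and a phosphatase, 2 were higher and 1 lower in the evening in Col-0. The phosphatase *TAP38* (1.47) and the other kinase (0.46) were higher, and the LHCII kinase *STN7* was lower (-0.93). In *acd6-1* at ZT13, 8 of 9 LHCII genes, 13 of 14 electron transport genes, 14 of 19 chlorophyll synthesis genes, 16 of 16 Calvin cycle genes and 6 of 6 other LHC-like genes were lower than in Col-0 and none higher, while 26.5% of all genes tested were lower. The regulators were divided in that comparison, with 10 of 17 lower and 5 higher.

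The summed level of floral organ identity genes was higher with *lux-1* at ZT13. The summed level of 5 markers was 13.9 to 32.9 RPKM in *lux-1* and 1.17 to 4.55 RPKM in Col-0 at ZT13, and 15.4 to 25.3 RPKM in *acd6-1lux-1* and 2.97 to 3.98 RPKM in *acd6-1*. At ZT1 the sum was 3.91 to 19.3 RPKM in *lux-1* and 1.88 to 4.54 RPKM in Col-0, and 1.58 to 15.6 RPKM in *acd6-1lux-1* and 5.47 to 8.19 RPKM in *acd6-1*. The ranges overlapped in both backgrounds at ZT1. Against Col-0, all 5 were higher in *lux-1* at ZT13, and 1 of the 5 was higher in *acd6-1lux-1* than in *acd6-1*. The part of these floral genes in the higher antenna transcripts of the *lux-1* plants was not tested.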

How the data were processed

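Libraries were made by the authors with a TruSeq kit from whole plants and sequenced as single reads. The submitters' processing notes name CASAVA and the TAIR10 build, and neither aligner nor counting software is given in the sources used here. The RPKM values of 25218 transcripts were used as deposited by the authors, and 1 column of values that belongs to no sample was not used. Total reads per library, the read count in the authors' deposited sample sheet, ranged from 14458079 to 20134373 before mapping. Multiplying by mapped reads gave back whole reads, to within 0.001, for 100.0% of genes, and 97.43% of the transcript lengths so obtained were multiples of 3, which marks coding lengths.

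The limma package (version 3.58.1, R 4.3.3) was run on log2(RPKM + 1) with 1 model for the 8 groups of all 22 libraries, a trended prior variance, and Benjamini-Hochberg adjustment over the 21666 genes tested. Symbols came from a TAIR10.1 table that matched 24867 identifiers. Members, lists and tests were chosen with earlier results of these data known. All 40 genes may be named. Full statistics go to the 4 smallest adjusted p and the 4 largest changes of a comparison and to members against their group, and of other lists only the 2 smallest adjusted p in 2 comparisons are named. Alternatives were another pseudocount, filter, scaling, prior and threshold, a replicate block, fewer libraries, and the count tests of DESeq2 1.42.0 and edgeR 4.0.16 on those whole reads. Settings were tested on simulated data. Summaries and plots used pandas 2.3.3, numpy 2.4.6, scipy 1.17.1 and matplotlib 3.10.9 in Python 3.11.15.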

Additional observations from a re-analysis of the deposited data

Results flagged for a closer look

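Effects of *lux-1* and of *acd6-1* that differed between times or backgrounds by the test of the difference in limma (adjusted p under 0.1) were picked out. In the Col-0 background 12 genes had a higher *lux-1* effect at ZT13 than at ZT1, by 2.57 on the log2 scale for *ELIP1*, 1.67 for *LHCA4*, 1.59 for *ELIP2*, 1.38 for *LHCB4.2*, 1.32 for *PSAD2*, 1.05 for *LHCB6*, and 0.61 to 0.93 for *PSAH2*, *LHCA1*, *LHCA3*, *LHCB4.3*, *LHCB5* and *PSBS*. In the *acd6-1* background 9 genes did, by 2.09 for *LHCA4*, 2.01 for *LHCB4.2*, 1.67 for *PSAD2*, 1.28 for *LHCA3*, 1.16 for *LHCB6*, 1.10 for *LHCA1*, and 0.51 to 0.95 for *PSAD1*, *PSAH2* and *LHCB5*. The call of *PSAD1* did not hold under 7 settings or in 18 of the 22 fits that left out 1 library, and that of *PSAH2* under 5 settings or in 15 of the 22. *LHCA4*, *LHCB4.2*, *PSAD2* and *LHCB6* thus passed beyond 1 in each background.

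Between backgrounds the *lux-1* effect was higher in *acd6-1* plants for 5 genes at ZT13, by 1.14 for *LHCB4.2* and 0.59 to 0.89 for *PSAE2*, *LHCA1*, *LHCA3* and *LHCA4*. At ZT1 the log2 change was higher in *acd6-1* plants for 15 genes, by 0.41 to 0.85, though not always larger in size. The *acd6-1* effect differed between ZT13 and ZT1 for 13 genes. It was higher at ZT13 by 1.95 for *ELIP2*, 1.67 for *ELIP1*, 1.25 for *LHCB4.3*, and 0.40 to 0.73 for *PSAH2*, *PSBS* and *RBCS2B*, and lower at ZT13, by -0.59 to -0.32, for *PSAE2*, *PSBO2*, *PSBR*, *LHCA1*, *LHCA3*, *LHCA5* and *LHCB7*. None of the downward calls held with median-of-ratios scaling or with edgeR. The upward difference of *PSAH2* turned to -0.076 with quantile normalization.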

How the results depend on the processing

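Counts of genes that passed are given here with their changes, and the cause of each change was not tested unless the setting has fewer genes or libraries by construction. Without 1 library the counts ranged over 35 to 35 for ZT13 against ZT1 in Col-0, 34 to 35 in *lux-1*, 33 to 36 in *acd6-1* and 31 to 33 in *acd6-1lux-1*, 37 to 40 for *acd6-1* against Col-0 at ZT13 and 38 to 38 at ZT1, 10 to 15 for the *lux-1* effect in Col-0 at ZT13 and 0 to 2 at ZT1, and 9 to 25 for that in *acd6-1* at ZT13 and 7 to 29 at ZT1. For the differences they ranged over 12 to 17 for the *lux-1* effect between times in the Col-0 background, 7 to 12 in the *acd6-1* background, 0 to 7 between backgrounds at ZT13, 3 to 19 between backgrounds at ZT1, and 8 to 17 for the *acd6-1* effect between times. Where this left 1 library in a group, that library was assumed to vary like the other groups.

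With changes beyond 1 required, the counts were 23 for the evening change in Col-0, 16 in *lux-1* and 14 in *acd6-1lux-1*, 4 for the *lux-1* effect in Col-0 at ZT13 and 0 at ZT1, 8 for that in *acd6-1* at ZT13 and 0 at ZT1, 6 for the *lux-1* effect between times in Col-0, 1 between backgrounds at ZT13 and 0 at ZT1, and 3 for the *acd6-1* effect between times. For the *lux-1* effect in Col-0 plants at ZT1 the count of 1 was 0 at an adjusted p under 0.05 and with quantile normalization, and 2 with DESeq2. In *acd6-1* plants at ZT1 the count of 20 was 12 at an adjusted p under 0.05, 4 with median-of-ratios scaling, 5 with only the groups compared, 6 with edgeR and 7 with DESeq2. At ZT13 the count of 20 was 0 with only the groups compared. Between backgrounds at ZT1 the count of 15 was 6 at an adjusted p under 0.05, 8 with quantile normalization, 7 with median-of-ratios scaling, 7 with only the groups compared and 9 with edgeR. Between backgrounds at ZT13 the count of 5 was 1 at an adjusted p under 0.05, 14 with quantile normalization, 1 with median-of-ratios scaling, 0 with only the groups compared, 1 with edgeR and 3 with no filter. With quantile normalization the count was 17 for the *lux-1* effect between times in *acd6-1* and 27 for the *acd6-1* effect between times.

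The replicate block by the number in the sample titles gave 3 genes for the difference between backgrounds at ZT13, and no other count moved by over 1.5 times under a block by either numbering. Same-numbered libraries did not deviate together (mean r -0.0062 by title and 0.0093 by description, with 7 and 10 of 22 libraries closest to their own number), so the numbers were not taken as pairs.

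Of the 321 calls for single genes, 103 did not hold under at least 1 alternative with all libraries, 64 did not hold without at least 1 library, and 17 changed sign under at least 1 alternative. With quantile normalization the evening change in Col-0 was 0.016 for *PSAL*, 0.016 for *PSBO1*, 0.29 for *PSBQ1*, 0.18 for *PSBR*, 0.17 for *PSBX* and 0.063 for *LHCB4.1*. In *lux-1* it was 0.053 for *PSAG*, 0.20 for *PSAL*, 0.039 for *PSBO1*, 0.11 for *PSBP1*, 0.15 for *PSBR*, 0.0062 for *PSBW*, 0.15 for *PSBX* and 0.077 for *PSBS*. The change of *PSBR* in *acd6-1* against Col-0 at ZT1 was 0.16, and the difference of the *acd6-1* effect between times was -0.076 for *PSAH2*. The evening change of *LHCA5* in Col-0 was -0.061 with median-of-ratios scaling, -0.10 with edgeR and -0.059 with DESeq2. Few reads limit *ELIP1* and *ELIP2* at ZT13.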
